A study of Mus musculus with 6 samples.

Results

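The genes described here encode the synaptic vesicle and release machinery, the proteins with which a nerve terminal stores neurotransmitter and releases it on demand. They were the 34 genes of a written list whose symbols were found in the table of read counts, out of 53801 genes in that table. All 34 passed the filter of at least 10 counts summed over the embryos, and the lowest count of any of them in any embryo was 262. The data were polyadenylated RNA from the whole brain of 6 C57BL/6 mouse embryos at E16.5, of which 3 were Bahd1-KO (Bahd1-/-) and 3 were Bahd1-WT (Bahd1+/+). BAHD1 is a scaffold protein of repressive chromatin complexes, and the comparison asked whether its absence alters transcript levels in the fetal brain. The labels name a knock-out of the gene and no tissue driver, and homozygous mice of the line came from crosses of heterozygous parents according to the study's methods. Whether any of the 6 embryos shared a litter is not stated in the sources used here. The p-values below set the difference between genotypes against the spread between these embryos only.

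A synaptic vesicle is loaded with transmitter by a transporter in its membrane, tethered near the plasma membrane by Rab3 and large scaffold proteins of the active zone, and primed by proteins of the Munc13 family. Fusion is driven when a vesicle SNARE protein zippers with SNARE proteins of the plasma membrane, with complexins holding the complex and synaptotagmins acting as calcium sensors. In the rodent forebrain many of these genes are already transcribed when neurons begin to differentiate, whereas several family members take over later, when synapses mature.

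The libraries held 61724000 to 91782802 counts, and the counts of Bahd1 were 2, 10 and 6 with the gene knocked out against 1971, 3102 and 3470 in the wild type. One library stood apart. In Bahd1-KO replicate 3, 53.5% of the counts were of protein-coding genes, against 97.8% to 98.4% in the other 5 embryos. In that embryo the 11 genes of the neuron list had a median level 3.38 below the mean of the other 5 on the log2 scale, whereas 12 genes of mature neurons were 2.34 above it, 8 genes of myelin 5.11 above it and 5 genes of the lung 9.05 above it. Results are therefore given with and without Bahd1-KO replicate 3. In whole tissue, fewer cells of a type and less RNA per cell cannot be told apart.

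Between genotypes, none of the 34 members passed the test. With all embryos, 0 members had an adjusted p under 0.05 in the edgeR quasi-likelihood test with Benjamini-Hochberg adjustment over all 24739 genes tested, of which 0.00404% were called, namely Bahd1 alone. By DESeq2 the count was 0 as well, against 0.0334% of all genes. The members' adjusted p-values lay between 0.696 and 0.995. At an unadjusted p under 0.05, 0 members were called by edgeR and 1, Syt2, by DESeq2, where edgeR called 4.67% and DESeq2 5.28% of all genes. Without Bahd1-KO replicate 3 the count at an unadjusted p under 0.05 was again 0, against 1.48% of all genes, and the adjusted p-values were 0.981 to 0.999, where 0.0171% of all genes passed. It was 8 without Bahd1-KO replicate 2, where 20.2% of all genes were called, and 2 without Bahd1-KO replicate 1, where 10.1% were.

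The fitted log2 fold changes, Bahd1-KO over Bahd1-WT, ran from -0.88 for Syn3 to 1.75 for Syt2. Their median was -0.13, against 0.06 over all genes tested. The fitted value was above 0 for 12 members and below 0 for 22, so that 35.3% were above 0, against 53.8% of all genes. That split moved with the scaling and the embryos, to 5 above 0 with total counts, 15 with upper-quartile factors and 6 without Bahd1-WT replicate 3. Without Bahd1-KO replicate 3 the range narrowed to between -0.55 for Bsn and 0.21 for Synpr, with a median of -0.12 against -0.01 over all genes, and 8 members (23.5%) were above 0, against 49.2% of all genes. The standard error of a member's fold change had a median of 0.33 with all embryos and 0.25 without Bahd1-KO replicate 3.

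**Figure D1:**
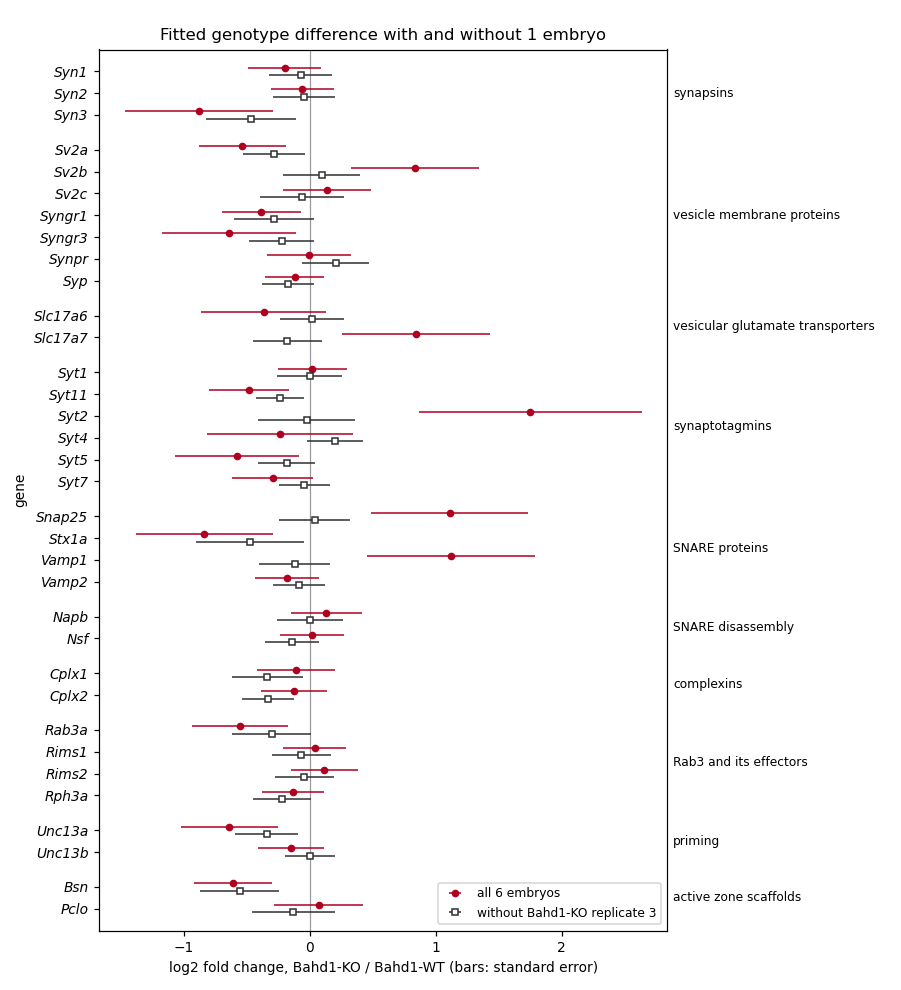
Fitted log2 fold change of each member, Bahd1-KO over Bahd1-WT, with bars of 1 standard error. Filled circles use all 6 embryos and open squares leave out Bahd1-KO replicate 3. The 5 members with the highest values in the fit of all embryos, Syt2, Vamp1, Snap25, Slc17a7 and Sv2b, lie between -0.18 and 0.10 in the other.

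In 1 of the 34 members, Syt11, every Bahd1-KO embryo was below every Bahd1-WT embryo, whereas 6.71% of all genes tested did not overlap and 2.24% did so with lower values in Bahd1-KO. Without Bahd1-KO replicate 3, Syt11 and Cplx2 did not overlap, or 2 of 34, where 10.8% of all genes did not. As shares these were 2.94% and 5.88% of the members, and the share of all genes not overlapping with lower values in Bahd1-KO was 4.5% in the second case. Leaving out another embryo gave 3 members without Bahd1-KO replicate 1, where 16.1% of all genes did not overlap, and 11 without Bahd1-KO replicate 2, where 36.7% did not. It gave 7 without Bahd1-WT replicate 1, 0 without Bahd1-WT replicate 2 and 5 without Bahd1-WT replicate 3, where 30.1%, 9.22% and 11.9% of all genes did not overlap.

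Levels below are normalised CPM, counts per 1000000 counts of the embryo after scaling with factors of the trimmed mean of M-values. To compare one gene with another, the normalised CPM was divided by the length of the gene's exons in kb. On that scale the mean level in Bahd1-WT embryos was highest for Vamp2, a vesicle SNARE, at 131.6 ± 22.2 (SD, n = 3), followed by Syt4 at 111 ± 23.1, Rab3a at 80.3 ± 13.2, Syt11 at 64.7 ± 3.05, Syn1 at 59.5 ± 15.2 and Syp at 53.9 ± 0.976. The first 2 differed by less than their SDs, and Syn1 differed from its neighbours Syt11 and Syp by less than its own SD. The lowest were Syt2 at 1.014 ± 0.285, Vamp1 at 1.401 ± 0.329 and Syn3 at 2.33 ± 0.975, and the intervals of 1 SD overlapped between Syt2 and Vamp1 and between Vamp1 and Syn3.

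**Figure D2:**
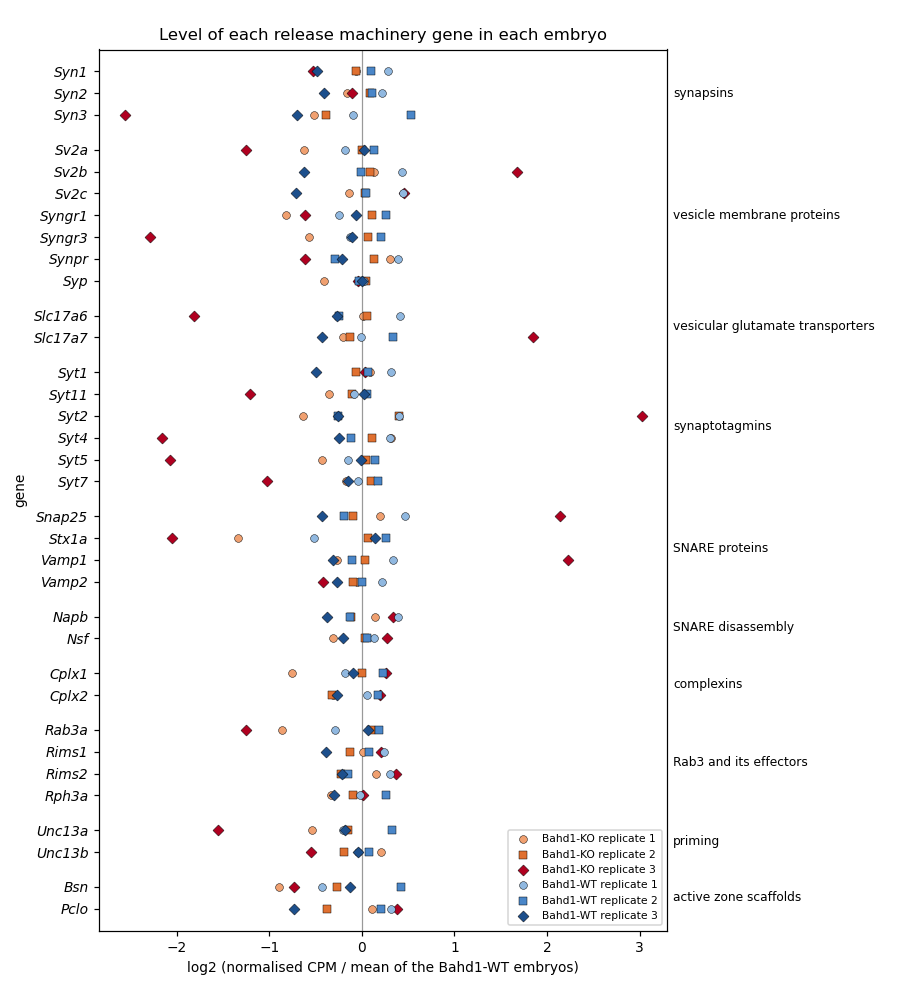
Level of each member in each embryo as log2 of its normalised CPM over the mean of the 3 Bahd1-WT embryos, with 1 symbol per embryo and genes grouped by role. Bahd1-KO replicate 3, the dark red diamonds, lies far to the right for Syt2, Vamp1, Snap25, Slc17a7 and Sv2b and far to the left for Syn3, Syngr3, Syt4, Syt5 and Stx1a.

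Synapsins are phosphoproteins that tie vesicles to the actin of the reserve pool. Syn1 was measured at 188, 189 and 136 normalised CPM in Bahd1-KO replicates 1, 2 and 3 and at 238, 210 and 141 among Bahd1-WT replicates 1, 2 and 3, and its groups overlapped because Bahd1-WT replicate 3 was low as well. Its log2 fold change was -0.20 (SE 0.29), and -0.07 without Bahd1-KO replicate 3. Syn2 had 81.7 to 96.8 normalised CPM in Bahd1-KO and 68.8 to 106 among Bahd1-WT. Syn3, the member expressed early in neuronal differentiation, had 19.98, 21.8 and 4.86 among Bahd1-KO against 26.8, 41.3 and 17.6 among Bahd1-WT. Bahd1-KO replicate 3 was the lowest of the 6 and Bahd1-WT replicate 2 the highest, while the remaining 4 lay close together and in mixed order. The log2 fold change of Syn3, -0.88 (SE 0.59), became -0.46 (SE 0.36) without Bahd1-KO replicate 3, with adjusted p-values of at least 0.696 and 0.981 by edgeR.

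The vesicle membrane proteins held Syp, or synaptophysin, an abundant tetraspan protein of the vesicle that binds its SNARE. Syp was the steadiest member between Bahd1-WT embryos, at 286, 276 and 281 normalised CPM, against 212, 291 and 274 in the Bahd1-KO embryos, where replicate 1 was the low one. Its log2 fold change was -0.12 (SE 0.23). The related synaptogyrin Syngr3 had 41.7, 65.1 and 12.7 among Bahd1-KO and 56.6, 71.8 and 57.6 among Bahd1-WT. The low value was that of Bahd1-KO replicate 3, and the fold change was -0.64 (SE 0.53) with it and -0.22 (SE 0.26) without. Syngr1 was at 54.1 to 103 among Bahd1-KO and 80.8 to 114 among Bahd1-WT, and synaptoporin, Synpr, at 20.6 to 38.9 and 25.8 to 41.3.

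The 3 Sv2 genes encode glycoproteins of the vesicle that are needed for normal release, and SV2 proteins are the entry receptors of botulinum neurotoxin A. They did not move together in Bahd1-KO replicate 3. Sv2a, the form found at nearly all synapses, was at 74.0 normalised CPM there against 114 to 193 in the other 5 embryos, and Sv2b, a form that becomes prominent in the maturing cortex, was at 153 against 31.2 to 65.0. Sv2c was at 54.8, just above the 24.5 to 54.5 of the others. In CPM without the scaling factors it was at 37.5, within their 27.1 to 56.8.

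The vesicular glutamate transporters fill vesicles with glutamate. Slc17a6 encodes VGLUT2, the form of brainstem, thalamus and young neurons, and Slc17a7 encodes VGLUT1, which becomes the main form of cortex and hippocampus after birth. Slc17a6 had 179, 184 and 50.5 normalised CPM in Bahd1-KO and 235, 149 and 147 among Bahd1-WT. Slc17a7 had 21.4, 22.6 and 88.8 among Bahd1-KO and 24.5, 31.2 and 18.3 among Bahd1-WT. Bahd1-KO replicate 3 was the lowest of the 6 in the first and the highest in the second, while the genotypes of the other 5 were mixed. The log2 fold changes were -0.36 (SE 0.49) and 0.84 (SE 0.59), and 0.02 and -0.18 without Bahd1-KO replicate 3. The share of Slc17a7 in the sum of both, per kb of exon, was 10.7%, 10.98% and 63.8% among Bahd1-KO and 9.47%, 17.3% and 11.1% in Bahd1-WT, so that Slc17a7 led in Bahd1-KO replicate 3 and Slc17a6 in every other embryo. The mean log2 ratio of Slc17a7 to Slc17a6 counts differed between genotypes by 1.09 (exact two-sided permutation test, p = 0.7, and 0.933 after adjustment over 4 pairs), and by -0.20 without Bahd1-KO replicate 3 (exact p = 0.8).

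Promoters are shown for the transporters Slc17a7 and Slc17a6, which went opposite ways in that embryo, for Syt2 and Vamp1, which were high in it, and for Syn1, whose promoter holds the left part of RE1, the element bound by the repressor REST, which keeps synaptic genes silent outside neurons. RefSeq windows of build GRCm38.p6, from 250 bases before to 50 after the annotated start, matched 26 of the 34 members, and no window matched Syn3, Syngr3, Syt4, Syt5, Syt7, Snap25, Vamp2 or Rims2. Capitals mark motifs read on both strands. These were the left part of RE1 (TTCAGCACC), the right part of RE1 (GGACAG, or CTGTCC on the other strand), the CRE bound by CREB (TGACGTCA), the GC box bound by Sp1 (GGGCGG, or CCGCCC on the other strand) and the TATA box (TATAAA). The windows are Syn1 at chrX:20920869-20921168 on the minus strand and, on the plus strand, Syt2 at chr1:134646362-134646661, Vamp1 at chr6:125215331-125215630, Slc17a7 at chr7:45163671-45163970 and Slc17a6 at chr7:51621580-51621879. For Syt2 and Slc17a6 the first of 2 listed windows is given.
Syn1: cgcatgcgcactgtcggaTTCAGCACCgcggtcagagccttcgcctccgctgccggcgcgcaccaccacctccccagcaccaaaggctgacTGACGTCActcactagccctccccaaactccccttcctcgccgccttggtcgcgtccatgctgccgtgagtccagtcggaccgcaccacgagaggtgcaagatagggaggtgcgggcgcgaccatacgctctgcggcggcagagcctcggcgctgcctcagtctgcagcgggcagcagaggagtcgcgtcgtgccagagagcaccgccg
Syt2: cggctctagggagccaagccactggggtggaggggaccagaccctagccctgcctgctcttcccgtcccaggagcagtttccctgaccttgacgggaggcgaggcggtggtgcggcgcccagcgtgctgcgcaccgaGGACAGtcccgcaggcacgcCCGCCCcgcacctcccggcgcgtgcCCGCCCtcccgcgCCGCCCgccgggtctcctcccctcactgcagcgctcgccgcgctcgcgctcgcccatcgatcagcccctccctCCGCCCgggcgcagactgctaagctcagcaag
Vamp1: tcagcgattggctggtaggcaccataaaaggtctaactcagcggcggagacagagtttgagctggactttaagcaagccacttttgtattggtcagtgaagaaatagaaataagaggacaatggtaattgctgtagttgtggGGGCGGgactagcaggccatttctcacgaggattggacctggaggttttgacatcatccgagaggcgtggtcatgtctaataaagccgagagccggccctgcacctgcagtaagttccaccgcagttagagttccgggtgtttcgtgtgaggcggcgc
Slc17a7: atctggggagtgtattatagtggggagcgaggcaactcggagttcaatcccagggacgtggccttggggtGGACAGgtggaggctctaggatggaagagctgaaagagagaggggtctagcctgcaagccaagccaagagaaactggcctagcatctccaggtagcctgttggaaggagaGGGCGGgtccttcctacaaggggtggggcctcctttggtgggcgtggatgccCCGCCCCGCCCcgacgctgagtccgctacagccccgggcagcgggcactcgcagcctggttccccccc
Slc17a6: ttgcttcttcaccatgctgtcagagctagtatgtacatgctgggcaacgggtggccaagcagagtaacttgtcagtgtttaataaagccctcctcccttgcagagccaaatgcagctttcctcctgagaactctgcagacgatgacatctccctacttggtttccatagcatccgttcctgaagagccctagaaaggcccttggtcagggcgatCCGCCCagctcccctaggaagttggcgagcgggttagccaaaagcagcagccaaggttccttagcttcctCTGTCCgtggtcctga

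The Syn1 window carried the left RE1 letters 232 bases and the CRE 159 bases before its start, written as offsets -232 and -159. The left RE1 letters were in 2 of the 26 member windows, those of Syn1 and Unc13a, and in 0.359% of 27025 promoters of the same length. The right RE1 letters, a shorter string, were in 8 member windows, Slc17a6, Slc17a7 and Syt2 among them, and in 22.1% of all. The CRE was in that of Syn1 alone among the members and in 1.88% of all promoters. A GC box was in 20 of the 26 windows (76.9%), including the 4 of Syt2, Vamp1, Slc17a7 and Slc17a6, against 35.9% of all promoters, and the TATA letters were in 1, that of Sv2b, against 14.2%. In Slc17a7 a pair of GC boxes overlaps by 1 base. The motifs were matches of letters and no factor was measured. The 2 transporter windows, whose genes went opposite ways in Bahd1-KO replicate 3, both held a GC box and the right RE1 letters.

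Synaptotagmins bind calcium and phospholipid. Syt1, the fast calcium sensor of forebrain synapses, had 401, 361 and 386 normalised CPM in Bahd1-KO and 468, 395 and 268 among Bahd1-WT, with overlapping groups and a log2 fold change of 0.02 (SE 0.28). Syt2, the fast sensor of hindbrain and neuromuscular synapses (1:134646677-134762593 in GRCm38), had 4.99, 10.3 and 62.9 among Bahd1-KO against 10.3, 6.49 and 6.49 among Bahd1-WT. Only Bahd1-KO replicate 3 was high, and Bahd1-KO replicate 1 was the lowest of all. The log2 fold change of Syt2 was 1.75 (SE 0.88) with all embryos, unadjusted p 0.0873 by edgeR and 0.0432 by DESeq2, and -0.02 (SE 0.39) without Bahd1-KO replicate 3. Its share in the sum with Syt1, per kb, was 15.1% in that embryo and 1.34% to 3.01% in the others, and the mean log2 ratio of the counts differed between genotypes by 0.91 (exact permutation p = 0.7), or by -0.13 without that embryo (exact p = 0.8).

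Syt4 and Syt11 bind little or no calcium and act on dense-core vesicles and on recycling. Syt4 had 539, 467 and 96.9 normalised CPM in Bahd1-KO and 534, 399 and 364 among Bahd1-WT, so 2 of 3 Bahd1-KO embryos lay within or just above the range of Bahd1-WT. The fitted log2 difference was -0.23 (SE 0.58), and 0.20 (SE 0.22) without Bahd1-KO replicate 3. Syt11 had 264, 314 and 146 among Bahd1-KO and 319, 349 and 343 among Bahd1-WT. The groups were apart, but the nearest embryos, Bahd1-KO replicate 2 at 314 and Bahd1-WT replicate 1 at 319, were close. The log2 fold change of Syt11 was -0.48 (SE 0.32), and -0.23 (SE 0.19) without Bahd1-KO replicate 3. Syt5, found on dense-core vesicles, had 19.4 in Bahd1-KO replicate 3 and 60.7 to 89.7 in the others, and Syt7, the sensor of slow release, 75.1 there and 136 to 172 in the others.

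Of the SNARE proteins, Snap25 and Stx1a sit on the plasma membrane, and Vamp2, or in some brainstem and motor terminals Vamp1, on the vesicle. Snap25 (2:136713453-136782428) had 236, 193 and 910 normalised CPM in Bahd1-KO and 285, 180 and 154 among Bahd1-WT. Without Bahd1-KO replicate 3 its embryos of both genotypes were interleaved, and the log2 fold change moved from 1.113 (SE 0.62) to 0.04 (SE 0.28). Stx1a went the other way, with 23.0, 60.5 and 13.9 among Bahd1-KO and 40.5, 69.3 and 64.0 among Bahd1-WT. Both Bahd1-KO replicates 1 and 3 were below every Bahd1-WT embryo, and replicate 2 was within their range. The log2 fold change of Stx1a was -0.83 (SE 0.54), and -0.47 (SE 0.43) without Bahd1-KO replicate 3.

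Vamp1 had 11.8, 14.6 and 66.4 normalised CPM in Bahd1-KO and 18.0, 13.2 and 11.5 among Bahd1-WT, and Vamp2 had 483, 471 and 375 against 585, 504 and 416. Vamp1 was high in Bahd1-KO replicate 3 alone, while Vamp2 was lowest there by a small margin. The log2 fold changes were 1.12 (SE 0.67) and -0.18 (SE 0.25), and without Bahd1-KO replicate 3 they were -0.12 and -0.09. The share of Vamp1 in the pair, per kb, was 6.22% in Bahd1-KO replicate 3 and 0.911% to 1.15% in the other embryos. The mean log2 ratio differed between genotypes by 0.86 (exact permutation p = 0.6), and by -0.03 without that embryo (exact p = 1).

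**Figure D3:**
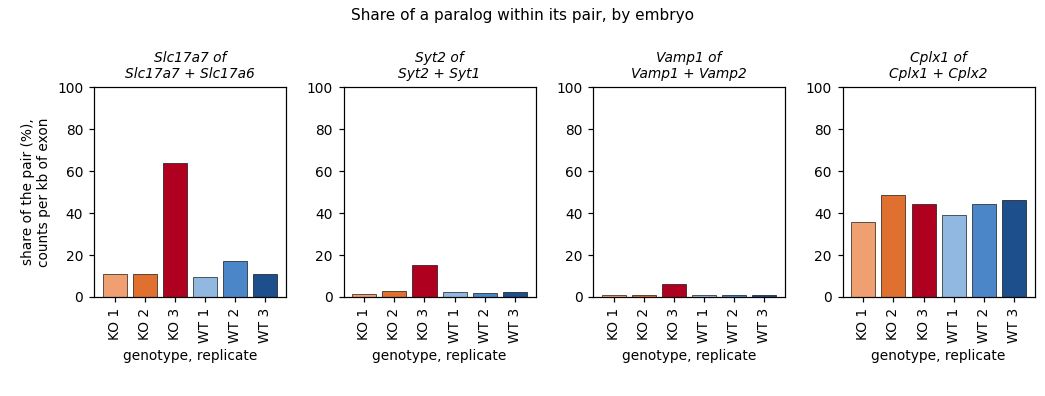
Share of the first gene in each of 4 pairs of related genes, in percent of their summed counts per kb of exon, with 1 bar per embryo. Bahd1-KO replicate 3 reaches 63.8% for Slc17a7, 15.1% for Syt2 and 6.22% for Vamp1, and lies within the range of the others for Cplx1.

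After fusion the SNARE complex is taken apart by the ATPase Nsf with its adaptor Napb. Nsf had 154, 196 and 232 normalised CPM in Bahd1-KO and 210, 199 and 166 among Bahd1-WT, and Napb had 147 to 200 and 122 to 209. Both log2 fold changes were small, 0.02 (SE 0.25) for Nsf and 0.13 (SE 0.28) for Napb, and Bahd1-KO replicate 3 did not stand far from the rest in either gene.

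Complexins bind the assembled SNARE complex. Cplx1 had 45.1, 76.0 and 90.9 normalised CPM in Bahd1-KO and 67.3, 89.4 and 71.5 among Bahd1-WT, with overlapping groups. Cplx2 had 181, 181 and 258 among Bahd1-KO and 234, 255 and 187.1 among Bahd1-WT. On this scale Bahd1-KO replicate 3 was the highest of the 6 in both genes. That rank depends on the scaling factors. In CPM without those factors it was the lowest for Cplx2, at 177 against 192 to 276. For Cplx1 it was then at 62.1, within the 47.9 to 96.7 of the others. In normalised CPM, the lower values of Bahd1-KO replicates 1 and 2 left Cplx2 apart without Bahd1-KO replicate 3, by 181 against 187.1 at the nearest. The log2 fold change of Cplx2 was -0.12 (SE 0.26) with all embryos and -0.33 (SE 0.21) without Bahd1-KO replicate 3. For Cplx1 these were -0.11 (SE 0.31) and -0.34 (SE 0.28). The ratio of Cplx1 to Cplx2 differed by -0.02 on the log2 scale (exact permutation p = 1), and by -0.06 without Bahd1-KO replicate 3 (exact p = 0.9). With 3 embryos in each group an exact p under 0.1 cannot be reached.

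Rab3a is the small GTPase of the vesicle, Rph3a is one of its effectors, and Rims1 and Rims2 link Rab3 to the calcium channels of the active zone. Rab3a had 98.6, 192 and 75.1 normalised CPM in Bahd1-KO and 146, 203 and 187 among Bahd1-WT. Replicates 1 and 3 of Bahd1-KO were below the Bahd1-WT range and replicate 2 within it. Its log2 fold change was -0.55 (SE 0.38), and -0.30 (SE 0.31) without Bahd1-KO replicate 3. The effectors varied less, at 77.8 to 97.6 against 64.6 to 99.7 for Rims1, 79.6 to 120 against 80.2 to 115 for Rims2 and 89.3 to 113 against 91.6 to 135 for Rph3a.

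Unc13a and Unc13b encode Munc13 proteins, which open syntaxin and prime vesicles. Unc13a had 93.9, 123 and 46.5 normalised CPM in Bahd1-KO and 118, 171 and 120 among Bahd1-WT, and the overlap came from Bahd1-KO replicate 2. Its log2 fold change was -0.64 (SE 0.38), and -0.34 (SE 0.25) without Bahd1-KO replicate 3. Unc13b was at 48.3 to 81.8 and 68.8 to 74.6. The scaffolds Bsn and Pclo, encoding bassoon and piccolo, are giant proteins that organise the active zone. Pclo had 268, 191 and 321 among Bahd1-KO and 308, 285 and 149 among Bahd1-WT, with fully mixed groups. Bsn had 65.6, 101 and 72.9 against 90.01, 163 and 112. In Bsn, Bahd1-KO replicate 3 was not the lowest, and the log2 fold change of -0.61 (SE 0.31, unadjusted p 0.0890 by edgeR) was -0.55 (SE 0.31) without it.

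Measured against the mean log2 level of the other 5 embryos, Bahd1-KO replicate 3 was more than 2-fold above for 5 members and more than 2-fold below for 11. The 5 were Syt2 (3.09 on the log2 scale), Vamp1 (2.28), Snap25 (2.15), Slc17a7 (1.93) and Sv2b (1.67). Among the 11, Syn3 was at -2.32, Syt4 at -2.23, Syngr3 at -2.18, Syt5 at -1.99, Slc17a6 at -1.80, Stx1a at -1.78 and Unc13a at -1.40, and Sv2a, Syt11, Rab3a and Syt7 were between -1.12 and -1.01. These were 14.7% and 32.4% of the members, against 18.6% and 24.2% of the 14825 genes with a mean of at least 1 normalised CPM. In each of the other embryos at most 1 member lay beyond 2-fold, namely Syt2 in Bahd1-KO replicate 1 (-1.30), Syn3 among Bahd1-WT replicate 2 (1.38) and Sv2b in Bahd1-WT replicate 3 (-1.08). Over those 5 embryos the highest value of a member was 1.69 times the lowest in the median, from 1.27 for Syt7 to 3.02 for Stx1a, against 1.60 over all genes of that level.

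The marker lists were read in the same way. Of the neuron list, all but Rbfox3, Nefl and Nefm were below the other 5 embryos in Bahd1-KO replicate 3. The summed level of its 11 genes was 1511 normalised CPM there and 9502 to 11235 in the others. Dcx, a marker of young neurons, was at 33.0 against 1865 to 3713. All 8 myelin genes, 10 of the 12 of mature neurons and all 5 of the lung had their highest value in that embryo. The 12 genes of mature neurons summed to 1077 there against 262 to 396. The 8 of myelin summed to 1296 there, to 148 in Bahd1-WT replicate 1 and to 66.2 to 73.2 in the rest. Mog and Opalin were at 0 in some embryos. The 34 members summed to 4348 to 5631 normalised CPM in all 6 embryos, with 4844 in Bahd1-KO replicate 3, of which Snap25 gave 910. That sum depends on the scaling, whose factor was 0.684 in Bahd1-KO replicate 3. Of all counts of that embryo, 0.331% were of members, against 0.481% to 0.587% in the other 5 embryos. Of its protein-coding counts 0.619% were, against 0.489% to 0.598%. The part of the marker lists in the members' values in Bahd1-KO replicate 3 was not tested.

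**Figure D4:**
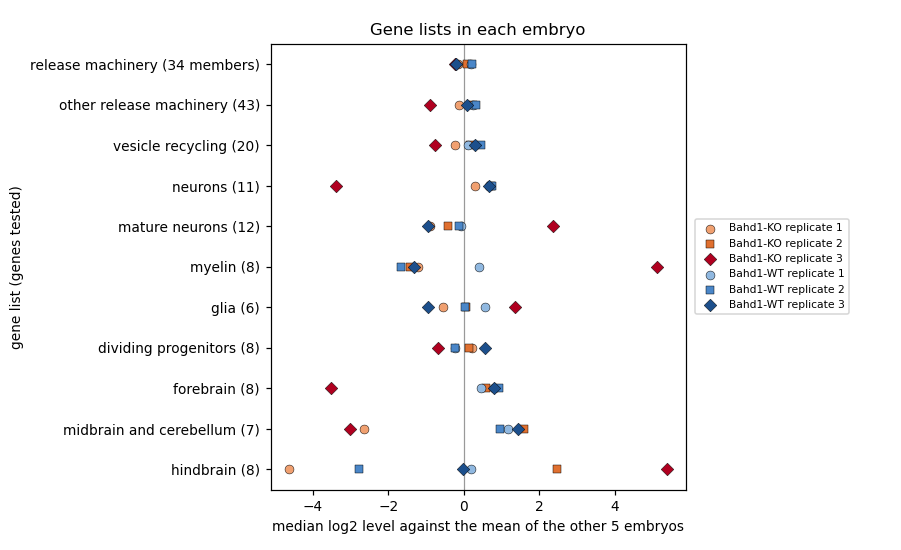
Median log2 level of each gene list in each embryo against the mean of the other 5 embryos, with the number of genes tested in brackets and 1 symbol per embryo. In Bahd1-KO replicate 3 the median of the members is -0.23, that of neurons -3.38, of mature neurons 2.34 and of myelin 5.11. Single members run from -2.32 to 3.09 there. The median of the 14825 genes with a mean of at least 1 normalised CPM, not drawn, is -0.24.

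The regional lists separated embryos as well. The 8 forebrain genes summed to 105 normalised CPM in Bahd1-KO replicate 3 and 1100 to 1580 in the others. The 7 midbrain and cerebellum genes summed to 8.79 and 6.90 in Bahd1-KO replicates 1 and 3 and to 48.1 to 66.8 in the other 4. The 8 hindbrain genes had a median of 5.36 in Bahd1-KO replicate 3 and of -4.61 in Bahd1-KO replicate 1 on the log2 scale, and Hoxa2, Hoxa3, Hoxb3 and Hoxd3 were at 0 in some embryos. How much of each brain region each sample held was not measured, and its part in the members' values was not tested. Outside the brain, the lung genes summed to 1083 normalised CPM in Bahd1-KO replicate 3 and 11.1 in Bahd1-KO replicate 2. In the other 4 embryos they summed to 0.198 to 0.465. Of these genes Scgb1a1 was nearly as high in Bahd1-KO replicate 2 as in replicate 3, at 6.05 and 6.52. Fits without Bahd1-KO replicate 3 still hold replicate 2. Bahd1-KO replicate 3 was at 9.05 for lung, 4.15 for skeletal muscle, 2.40 for meninges and connective tissue and 0.22 for blood. Glia were at 1.35, dividing progenitors at -0.68 and sensory ganglia at -1.63. The glia and progenitor lists were split in that embryo, so their medians describe them poorly. Glia genes ran from -5.12 for Fabp7 to 4.84 for S100b, and progenitor genes from -3.91 for Eomes to 1.76 for Mki67. The summed level of glia was the lowest of the embryos, 534 normalised CPM against 747 to 1014. That of dividing progenitors was the highest, 1132 against 533 to 769. Retina genes summed to at most 2.07 and pituitary genes, of which 3 of 6 could be tested, to at most 0.54.

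Levels of the members also moved with the GC content of their transcripts, in opposite directions in different embryos. Spearman's rho between the GC content of a member's longest transcript and its log2 level against the other 5 embryos was -0.58 in Bahd1-KO replicate 1, 0.32 in Bahd1-KO replicate 2, -0.14 in Bahd1-KO replicate 3, -0.46 among Bahd1-WT replicate 1, 0.63 among Bahd1-WT replicate 2 and 0.40 among Bahd1-WT replicate 3. Over 14812 genes the values were -0.70, 0.49, -0.24, -0.45, 0.64 and 0.59 in the same order. These are descriptions across 34 genes that share each library, with no test. Once every library was corrected for GC content, 19 members were above 0 in place of 12. Without Bahd1-KO replicate 3 the correction left 12 above 0 in place of 8, with a median of -0.07 in place of -0.12. Beyond such corrected fits, the part of GC content in the members' fold changes was not tested.

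**Figure D5:**
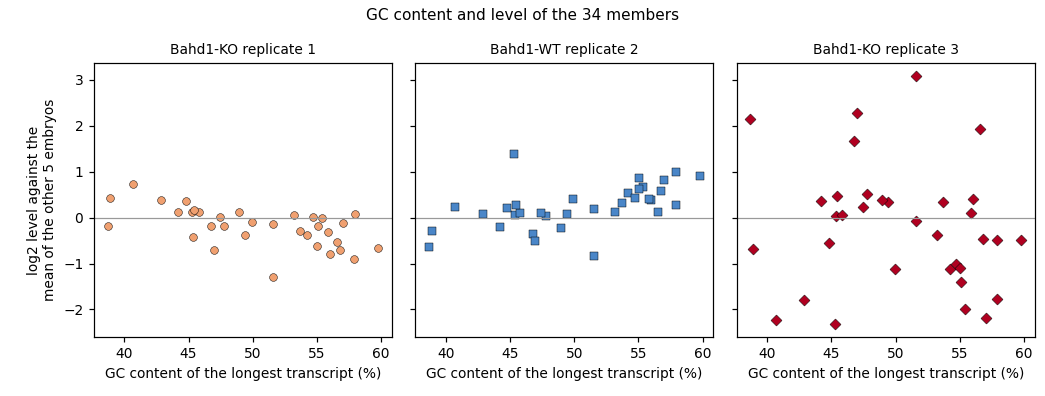
GC content of the longest transcript of each of the 34 members in percent against its log2 level relative to the other 5 embryos, in 3 embryos. The points fall with GC content in Bahd1-KO replicate 1 (rho -0.58) and climb in Bahd1-WT replicate 2 (rho 0.63), and in Bahd1-KO replicate 3 they scatter widely (rho -0.14).

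The rest of the pathway was described by 43 other genes of the release machinery and 20 of vesicle recycling. With all embryos 0 of the 63 passed an unadjusted p under 0.05 by edgeR, where 4.67% of all genes did. By DESeq2 2 did, among them Sypl, a relative of synaptophysin, where 5.28% of all genes did. Of the release genes 13 were above 0 and 30 below, with a median log2 fold change of -0.32. Of the recycling genes 3 were above and 17 below, with a median of -0.44. Over all genes 53.8% were above 0, with a median of 0.06. Without Bahd1-KO replicate 3 the medians of the 2 lists were -0.12 and -0.24, against -0.01 over all genes. In that embryo the median levels of the lists against the others were -0.89 and -0.75. The direction of these genes after the GC correction was not examined. The recycling genes Ap2b1, a subunit of the clathrin adaptor, and Itsn1, a scaffold of endocytosis, did not overlap between genotypes, with lower values in the Bahd1-KO embryos, at 183 to 404 against 444 to 513 and 122 to 300 against 304 to 402. Of the 63 pathway genes, 3 (4.76%) did not overlap, these included. Of all genes, 6.71% did not overlap, and 2.24% did so with lower values in Bahd1-KO.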

How the data were processed

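The authors deposited 1 table of raw read counts per gene for the 6 embryo brains, with no normalization and no filter. According to the labels and the study's methods, poly(A) RNA was made into stranded libraries, reads were trimmed with cutadapt 1.11 and aligned to GRCm38, and exon counts were made with featureCounts 1.4.6-p3 in its stranded mode. Both STAR 2.5.0a and TopHat2 are named for the alignment.

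Genes with a summed count of at least 10 were tested with the edgeR quasi-likelihood test (version 4.0.16, R 4.3.3, two-sided) with genotype as the single term. DESeq2 (version 1.42.0) was an alternative. Normalised CPM used factors of the trimmed mean of M-values. Values against other embryos were differences of log2(normalised CPM + 0.01). Ratios of related genes were compared by an exact permutation test over embryos. Exon lengths and GC content came from GENCODE M21, promoters from RefSeq. Groups and replicate numbers were taken from the sample titles. The members, the gene lists, the tests and the rule for naming genes (the highest and lowest fold changes, groups that did not overlap, the highest level of each role and the related pairs) were chosen with earlier results of these data known. The model was tested on simulated data, with means taken without Bahd1-KO replicate 3 and the same dispersion for every gene. The simulation held no library as deviant as that one, so it does not show how the test performs on these embryos. No 2 libraries agreed within sampling noise. Counting by position can split reads between near-identical copies. The values of 1 pathway gene are not reported here.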

Additional observations from a re-analysis of the deposited data

How the results depend on the processing

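No embryo was tested as an outlier, since groups of 3 are too small for it. The lowest count of a member in any embryo was 262. Over 30 results and 21 alternatives, 541 comparisons were made. Of these, 441 were classed as the same, 28 counts or medians moved and 72 fold changes or ratios changed direction. Of the 72, 66 were among 400 fold changes of single members. A fold change or ratio was the same if its direction held and it did not newly pass the threshold. A count was the same within a set ratio, and a median within the SD of 0.20 between embryos of a genotype. The members' median of -0.13 was therefore classed as the same at 0.03 after the GC correction, although its sign turned. No member passed an adjusted p of 0.05 under any alternative. In many of them 0 of all genes passed, Bahd1 included, so those fits show nothing particular to the members. Among these were the replicate block, neuron factors, and leaving out any single embryo other than Bahd1-KO replicate 3. The most genes passed with the replicate block without Bahd1-KO replicate 3, 16 of 23334. The 5 alternatives chosen after seeing the data were DESeq2 without Bahd1-KO replicate 3, factors from the neuron list, and the GC correction alone, without that embryo and with the replicate block. The cause of the changes was not tested.

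Over all genes tested the median log2 fold change was 0.06 as reported, 0.17 with upper-quartile factors and -0.11 with total counts, beside -0.13, -0.02 and -0.32 for the members. Factors from the neuron list gave 1.56 for all genes and 1.42 for the members.

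The count of members at an unadjusted p under 0.05, 0 as reported, was 1 with DESeq2 (Syt2), 5 with neuron factors (Sv2b, Slc17a7, Syt2, Snap25, Vamp1) and 0 to 8 when each embryo was left out. Of all genes, 5.28% were called with DESeq2, 20.2% with neuron factors and 20.2% without Bahd1-KO replicate 2, which gave the 8. Members without overlap, 1 as reported, were 0 with the filter of filterByExpr (5.15% of all genes), 0 with neuron factors (7.78%) and 0 to 11 with each embryo left out (9.22% and 36.7%). Members above 0, 12 as reported, were 5 with total counts, 33 with neuron factors, 19 after the GC correction and 6 to 14 with each embryo left out. Of the 63 further pathway genes, 0 as reported, 1 (Sypl) was past the unadjusted threshold with no filter, where 5.96% of all genes were, 2 with DESeq2, 9 with neuron factors and 0 to 21 with each embryo left out, with 21 without Bahd1-KO replicate 2 and the shares of all genes as above.

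Replicate numbers are shared by the genotypes, but embryos of the same number did not deviate together in each case (r = 0.21, 0.31 and -0.11). Bahd1-KO replicates 2 and 3 correlated best with a Bahd1-WT embryo of another number, and Bahd1-KO replicate 1 with Bahd1-WT replicate 1. With so few embryos these correlations cannot decide whether embryos were paired, by litter or otherwise. With the replicate block 2 members passed the unadjusted threshold (Syn3, Bsn) and 1 pathway gene (Ap2a1), with 2.09% of all genes. With the block and without Bahd1-KO replicate 3 there were 13 members and 13 pathway genes, with 9.30% of all genes, and 2 members were above 0. With the block and the GC correction there were 1 (Syn3), with 1.53% of all genes, and 19 members above 0.

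Fold changes of opposite sign were found with neuron factors for Cplx2 (1.71), Syt11 (0.71), Stx1a (0.089), Syngr3 (0.14), Rab3a (0.64), Slc17a6 (0.51), Syn1 (1.23), Syp (1.55), Syt4 (0.48), Unc13a (0.46), Vamp2 (1.30) and Cplx1 (1.75). With total counts they were found for Nsf (-0.20), Pclo (-0.15) and Syt1 (-0.15), and with upper-quartile factors for Cplx1 (0.0072). After the GC correction they were Cplx2 (0.17), Pclo (-0.010), Syn1 (0.29), Vamp2 (0.050), Syt1 (-0.042) and Cplx1 (0.33), and with the replicate block besides Cplx2 (0.14), Syn1 (0.37), Vamp2 (0.081), Syt1 (-0.019) and Cplx1 (0.27). After the GC correction without Bahd1-KO replicate 3 they were Vamp1 (-0.15), Snap25 (-0.17), Syngr3 (0.10), Nsf (-0.11), Pclo (-0.22), Syn1 (0.31), Syt4 (0.0039), Vamp2 (0.095) and Syt1 (-0.077). With DESeq2 without that embryo they were Syt2 (-0.034), Vamp1 (-0.12), Nsf (-0.14), Pclo (-0.13), Slc17a6 (0.017), Syt4 (0.20) and Slc17a7 (-0.18). With the replicate block without that embryo they were Syt2 (-0.20), Vamp1 (-0.25), Snap25 (-0.10), Nsf (-0.25), Pclo (-0.41), Syt4 (0.10), Slc17a7 (-0.35) and Syt1 (-0.19).

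With each embryo left out the fold change ranged from -0.025 to 2.24 for Syt2, -0.12 to 1.51 for Vamp1, -0.18 to 1.18 for Slc17a7, -0.66 to 0.020 for Slc17a6, -0.62 to 0.20 for Syt4, -0.14 to 0.16 for Nsf, -0.20 to 0.22 for Pclo, -0.24 to 0.0086 for Syp, -0.18 to 0.17 for Syt1 and -0.34 to 0.14 for Cplx1. The differences of log2 ratios ranged from -0.20 to 1.74 for Slc17a7 to Slc17a6, -0.13 to 1.73 for Syt2 to Syt1, -0.030 to 1.396 for Vamp1 to Vamp2 and -0.19 to 0.19 for Cplx1 to Cplx2. The first 3 of these turned only without Bahd1-KO replicate 3, and the last without Bahd1-KO replicate 1, Bahd1-WT replicate 2 or Bahd1-WT replicate 3.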
